A study of Homo sapiens with 8 samples.

Results

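The mitochondrial respiratory chain is built from nuclear and mitochondrial genes, and its nuclear-encoded genes were followed here by complex through the loss of the RNA demethylase ALKBH5 in leukaemia cells. Members were taken by name from the deposited table of TPM (a length-scaled share of the transcripts of a library, summing to the same total in each): the NDUFA, NDUFB, NDUFC, NDUFS and NDUFV genes, SDHA to SDHD, the UQCR genes with CYC1, the COX5 to COX8 genes and the ATP5 genes. Names with a hyphen and pseudogene names were left out. This gave 85 of 26830 genes, with 38 for complex I, 4 for complex II, 10 for complex III, 15 for complex IV and 18 for complex V. A gene was tested when it reached 1 TPM in at least 2 libraries, which 80 members did (38, 4, 10, 11 and 17 for complexes I to V). The other 5 were COX6A2, COX6B2, COX7A1, COX7B2 and ATP5L2, all at or under 1.06 TPM in every library. The rule for names leaves out the subunits COX4I1 and NDUFAB1, and the mitochondrially encoded subunits were not analysed here. A few names do not stand for a subunit of the complex they were counted under: COX7A2L is a supercomplex assembly factor, ATP5S and ATP5SL are not ATP synthase subunits, and the NDUFA4 protein is now placed in complex IV.

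NOMO-1 and MOLM-13 are human acute myeloid leukaemia cell lines, both of which carry an MLL (KMT2A) fusion gene. In each line 1 short hairpin RNA against ALKBH5 (shALKBH5) was set against a non-targeting hairpin (shNS), delivered by lentivirus with puromycin selection, and 2 poly(A) RNA libraries were made for each of the 4 groups: NOMO-1 shALKBH5, NOMO-1 shNS, MOLM-13 shALKBH5 and MOLM-13 shNS. The labels give the length of selection both as 4 days and as 1 week, and a protocol text mentions drug treatments and viral knockdown of FTO, neither of which any sample is labelled with. Since only 1 hairpin against ALKBH5 was used, its effects on other transcripts cannot be told apart from those of losing ALKBH5. The labels do not tell whether replicate libraries stem from separate cultures; p-values therefore reflect the spread among libraries alone, possibly a technical one. Sequencing depth is unknown, since TPM carries none.

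The labels were first checked against the targeted gene. ALKBH5 stood at 15.1 and 14.2 TPM in NOMO-1 shALKBH5 against 70.4 and 71.8 TPM in NOMO-1 shNS, and at 9.45 and 7.35 TPM in MOLM-13 shALKBH5 against 45.7 and 45.8 TPM in MOLM-13 shNS. It was lower in every knockdown library of both lines. Of 10 myeloid markers, all passed the filter on low values, while none of 5 erythroid and megakaryocyte markers did; MPO was at or under 0.48 TPM in every NOMO-1 library. The MOLM-13 shALKBH5 libraries stood apart from each other: for the 79 members averaging at least 10 TPM, the log2 difference between both libraries had an SD of 0.281 there, and of 0.0719 to 0.11 in the other groups. Relative to the mean of the MOLM-13 controls, the median member lay 0.11 higher in replicate 1 and 0.15 lower in replicate 3 on the log2(TPM + 1) scale. Summed TPM of structural RNA genes was also far higher in these libraries, with 4636 and 9333 TPM in MOLM-13 shALKBH5 against 289 and 588 TPM in MOLM-13 shNS. Summed TPM of 17 interferon-stimulated genes was 2120 and 199.6 in MOLM-13 shALKBH5 against 260.4 and 249.8 in MOLM-13 shNS, and 795 and 818 in NOMO-1 shALKBH5 against 706 and 735 in NOMO-1 shNS. The 10 myeloid markers summed to 2128 and 2134 TPM in NOMO-1 shALKBH5 against 1114 and 1152 TPM in NOMO-1 shNS. In MOLM-13 they summed to 20351 and 12957 TPM in shALKBH5 against 10367 and 9824 TPM in shNS. These sums did not hold marker by marker, since 2 markers rose and 3 fell in each line (limma adjusted p under 0.05). Their median log2 change was -0.0035 in NOMO-1 and 0.25 in MOLM-13, where the lowest was -4.48. With libraries rescaled as described below, 2 rose and 4 fell in NOMO-1, and 4 rose and 2 fell in MOLM-13. The erythroid and megakaryocyte markers summed to 14.1 TPM in MOLM-13 shALKBH5 replicate 3 and to at most 0.20 TPM in the other libraries. The part of these differences in the results was not tested.

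Electrons enter the chain at complex I from NADH and at complex II from succinate, pass through complex III and cytochrome c to oxygen at complex IV, and the proton gradient built on the way drives ATP synthesis at complex V. Complex II, succinate dehydrogenase, is also an enzyme of the tricarboxylic acid (TCA) cycle and is the only one of these complexes whose subunits are all nuclear-encoded. Promoters of respiratory-chain genes are known for sites of the transcription factors NRF1, of ETS family factors such as GABP, and of YY1.

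The test found 5 members lower after knockdown in both lines, of which 4 are described here: NDUFS1, SDHB, UQCR11 and ATP5C1. Their promoters are shown because of these shared changes. Each runs 5′ to 3′ along the gene's strand, from 250 bases before to 50 bases after the RefSeq start of transcription (GRCh38.p14). Capitals mark matches to a short core of each factor, searched on both strands: GCGCANGCG for NRF1, CCGGAAG for ETS factors and AANATGGCG for YY1. The spans are chr2:206159395-206159694 (minus strand) for NDUFS1, chr1:17053983-17054282 (minus strand) for SDHB, chr19:1605413-1605712 (minus strand) for UQCR11 and chr10:7787927-7788226 (plus strand) for ATP5C1, whose current symbol is ATP5F1C.
NDUFS1: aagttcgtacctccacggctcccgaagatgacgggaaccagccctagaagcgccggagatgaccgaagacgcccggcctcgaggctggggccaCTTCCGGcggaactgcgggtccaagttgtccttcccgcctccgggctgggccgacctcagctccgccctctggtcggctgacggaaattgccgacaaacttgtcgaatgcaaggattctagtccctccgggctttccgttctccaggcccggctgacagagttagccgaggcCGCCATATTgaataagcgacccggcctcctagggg
SDHB: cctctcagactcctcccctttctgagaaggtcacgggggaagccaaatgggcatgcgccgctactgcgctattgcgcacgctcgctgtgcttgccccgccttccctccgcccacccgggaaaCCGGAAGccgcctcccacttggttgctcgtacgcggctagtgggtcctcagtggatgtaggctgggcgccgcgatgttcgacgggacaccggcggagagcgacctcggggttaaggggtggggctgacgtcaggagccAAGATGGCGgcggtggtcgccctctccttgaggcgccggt
UQCR11: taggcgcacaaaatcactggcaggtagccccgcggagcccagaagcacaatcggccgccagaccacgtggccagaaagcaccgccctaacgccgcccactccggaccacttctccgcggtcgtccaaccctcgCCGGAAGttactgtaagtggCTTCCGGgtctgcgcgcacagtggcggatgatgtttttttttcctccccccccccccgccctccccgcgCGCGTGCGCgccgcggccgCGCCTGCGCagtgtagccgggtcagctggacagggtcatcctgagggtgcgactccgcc
ATP5C1: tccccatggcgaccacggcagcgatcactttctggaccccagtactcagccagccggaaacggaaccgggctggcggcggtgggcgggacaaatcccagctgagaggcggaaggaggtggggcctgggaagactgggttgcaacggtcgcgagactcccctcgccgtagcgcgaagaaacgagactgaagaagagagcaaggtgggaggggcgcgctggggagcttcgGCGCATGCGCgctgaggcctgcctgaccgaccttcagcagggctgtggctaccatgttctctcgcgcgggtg
The NDUFS1 promoter held 1 ETS core at -157 and 1 YY1 core at 16, and the SDHB promoter 1 ETS core at -128 and 1 YY1 core at 11, counted from the transcription start to the first base of the match. The UQCR11 promoter held ETS cores at -117 and -97 and NRF1 cores at -28 and -9. In ATP5C1 the NRF1 matches at -22 and -21 overlap as a single palindrome. No core is common to the 4 sequences. Promoters were found for 67 of the 85 members; 31.3% of them held the NRF1 core against 8.05% of all 27305 promoters in the table, 26.9% held the ETS core against 10.7%, and 23.9% held the YY1 core against 3.37%. These are matches of letters and not measured binding.

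In NOMO-1, 6 members rose and 11 fell after ALKBH5 knockdown among the 80 tested (limma on log2(TPM + 1), two-sided, Benjamini-Hochberg adjusted p under 0.05 over 14302 genes). Of all genes tested, 43.6% passed in NOMO-1, 28.6% as higher and 15.0% as lower, so the members' 21.2% lies under the background. In MOLM-13, 10 members rose and 10 fell, or 25.0% against a background of 41.8%, of which 10.6% were higher and 31.2% lower. The direction of the small changes depended on the scaling. With each library rescaled by its median ratio to the others, which moved the median log2 fold change of all genes to 0.00 in NOMO-1 and 0.03 in MOLM-13, against 0.16 and -0.18 as deposited, 6 members rose and 36 fell in NOMO-1, and 39 rose and 9 fell in MOLM-13. These 42 and 48 of the 80 members were above the share of all genes that passed, 49.7% in NOMO-1 and 50.5% in MOLM-13. Whether the members lay under the background thus also depended on the scaling. Fitted without the other line, 18 rose and 24 fell in NOMO-1, while 0 rose and 3 fell in MOLM-13. In these fits 63.8% and 11.8% of all genes passed, above the members' 52.5% and 3.75%. In MOLM-13 the members' log2 changes also went with transcript length (Spearman correlation -0.321). Their median was 0.17 for the 40 shorter members and -0.17 for the 40 longer ones. In NOMO-1 the correlation was 0.121, and for the difference between the lines 0.388. The reason was not tested. Since these are bulk samples, fewer cells of a type and less RNA per cell cannot be told apart.

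The counts also moved when a library was left out. Calls in NOMO-1 numbered 5 without its shALKBH5 replicate 2, 9 without its shALKBH5 replicate 3, 6 without either of its shNS libraries, 44 without either MOLM-13 shALKBH5 library and 11 without MOLM-13 shNS replicate 1. Calls in MOLM-13 numbered 55 without its shALKBH5 replicate 1, 46 without its shALKBH5 replicate 3 and 7 without either of its shNS libraries. Of 14 alternative fits over both lines, rescaling and each left-out library among them, 14 called SDHB and UQCR11 lower in both lines, and 12 called NDUFS1 and ATP5C1 so. Genes called lower in both lines made up 10.4% of all genes tested, and the 5 members are 5 of 80. Groups without overlap were common, with 27 members higher and 37 lower in NOMO-1, and 25 and 25 in MOLM-13. Of all genes tested, 52.1% were higher and 30.5% lower without overlap in NOMO-1, and 21.3% and 46.2% in MOLM-13. Many genes named below were picked partly for groups without overlap, so its mention there is a description and adds no support.

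**Figure D1:**
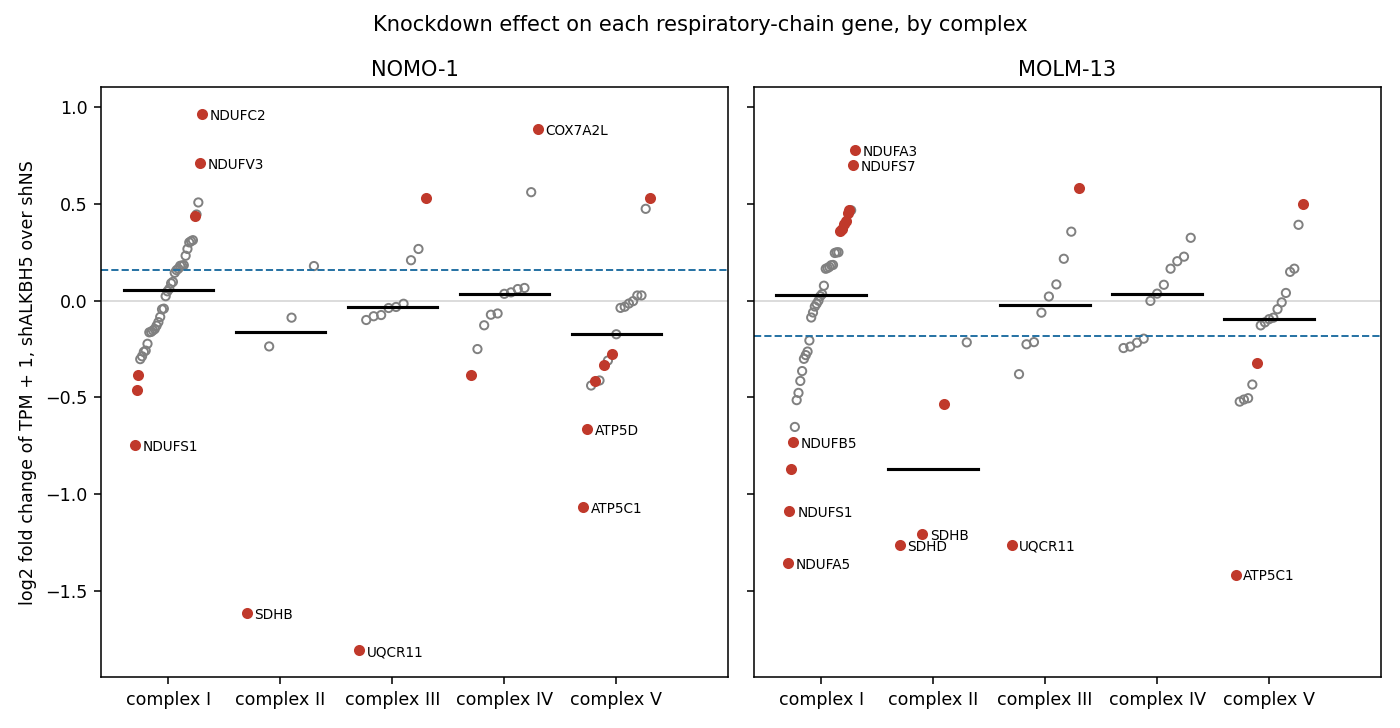
Log2 fold change of TPM + 1, shALKBH5 over shNS, for each of the 80 tested members, by complex, in NOMO-1 (left) and MOLM-13 (right). Filled red points passed the test, open points did not, black bars are the median of a complex and the dashed line is the median of all genes tested (0.16 in NOMO-1, -0.18 in MOLM-13); most members past the test with a change over 0.6 in size are named. UQCR11 and ATP5C1 lie below the rest of their complex in both lines, and SDHB does so in NOMO-1, while in MOLM-13 SDHD is as low.

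By complex, the median log2 fold change in NOMO-1 was 0.05 for complex I, -0.16 for complex II, -0.04 for complex III, 0.04 for complex IV and -0.17 for complex V, beside 0.16 for all genes tested. In MOLM-13 it was 0.03, -0.87, -0.02, 0.04 and -0.10 for complexes I to V, beside -0.18 for all genes. Complex II thus had the lowest median in MOLM-13, and complexes II and V had similar low medians in NOMO-1. With the names that stand for no subunit left out, the NOMO-1 median was -0.28 for complex V and -0.02 for complex IV. With rescaled libraries the medians for complexes I to V were -0.16, -0.38, -0.25, -0.18 and -0.39 in NOMO-1, and 0.32, -0.58, 0.27, 0.33 and 0.20 in MOLM-13. Complex II was the only complex with a median below that of all genes in both lines under both scalings.

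The make-up of the chain was also read as a share within each library, a ratio that no rescaling of a library changes. Complex II made up 2.07% and 2.11% of the summed respiratory-chain TPM in NOMO-1 shALKBH5, against 2.88% and 2.89% in NOMO-1 shNS. In MOLM-13 its share was 2.12% and 1.80% in shALKBH5, against 3.43% and 3.37% in shNS. In NOMO-1 most of this fall lay in SDHB, the only SDH gene to pass the test there. The 4 SDH genes summed to 354 and 376 TPM in NOMO-1 shALKBH5 against 519 and 531 TPM in NOMO-1 shNS. SDHB alone had 66.0 and 70.7 TPM against 209 and 214 TPM in the same groups. The complex II share of the knockdown libraries lay below that of their controls in both lines without overlap. Complex I moved the other way, with 36.6% and 36.2% in NOMO-1 shALKBH5 against 33.2% and 33.0% in NOMO-1 shNS, and 29.4% and 29.7% in MOLM-13 shALKBH5 against 28.2% and 27.9% in MOLM-13 shNS. In NOMO-1 its largest gains of TPM were at NDUFB9, with means of 1075 in shALKBH5 against 870 in shNS, and NDUFA1, with 510 against 376. NDUFB9 did not pass the test, and the complex I share thus does not stand for its members at large. Complex V held 25.9% and 26.6% in NOMO-1 shALKBH5 against 28.8% and 28.7% in NOMO-1 shNS, whereas in MOLM-13 its 31.4% and 33.8% in shALKBH5 overlapped the 33.6% and 33.9% in shNS. Complex III kept a share of 9.37% to 9.92% over all 8 libraries. Complex IV held 25.6% and 25.5% in NOMO-1 shALKBH5 against 25.4% and 25.6% in NOMO-1 shNS, which overlapped. In MOLM-13 its 27.1% and 25.3% in shALKBH5 lay above the 24.9% and 25.0% in shNS. With 2 libraries against 2, an exact two-sided permutation test cannot give a p below 0.33, so these shares are given as values. All members together made up 1.71% and 1.78% of TPM in NOMO-1 shALKBH5 against 1.81% and 1.84% in NOMO-1 shNS, and 1.90% and 1.57% in MOLM-13 shALKBH5 against 1.76% and 1.81% in MOLM-13 shNS.

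**Figure D2:**
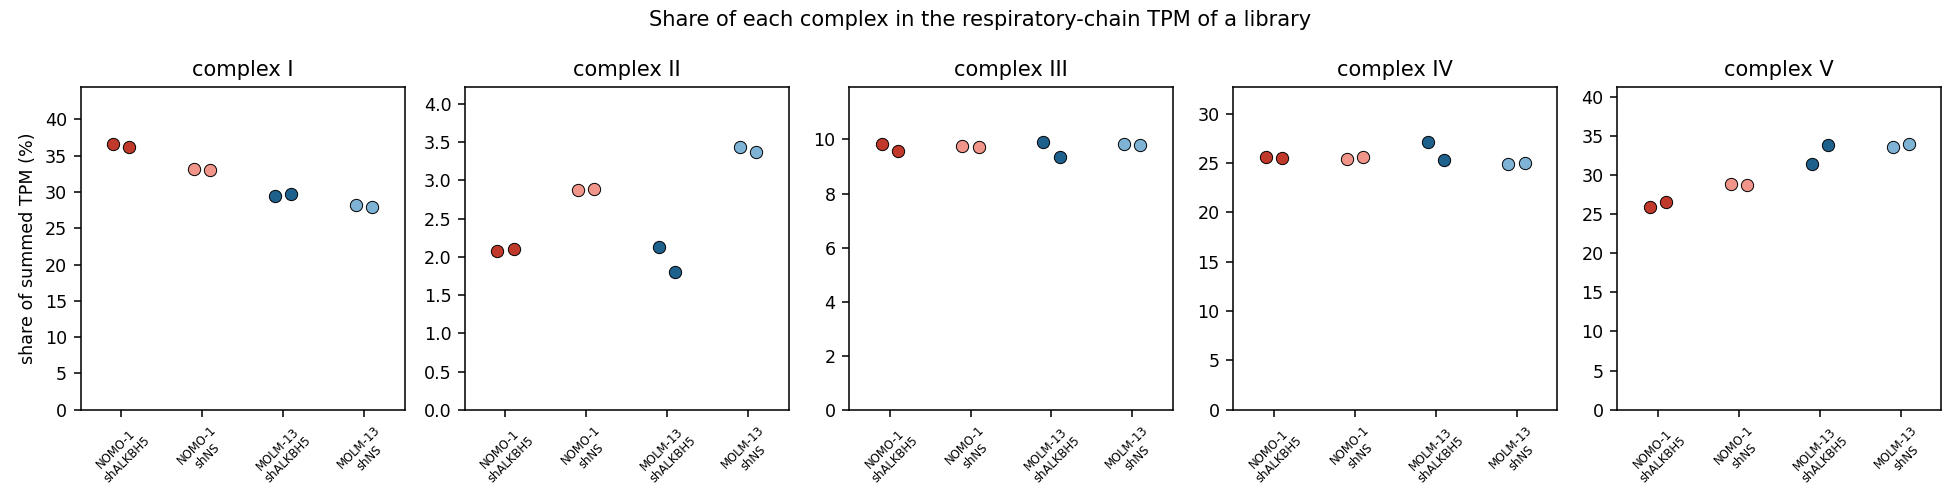
Share of each complex in the summed TPM of the 85 members of a library, in percent; every panel has its own vertical axis, each starting at 0, and each point is a library. The complex II share lies at 1.80% to 2.12% in the 4 shALKBH5 libraries and at 2.88% to 3.43% in the 4 shNS libraries.

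Complex II has a flavoprotein that oxidises succinate (SDHA), an iron-sulphur protein that carries the electrons on (SDHB) and a pair of membrane anchors that hold the ubiquinone site (SDHC and SDHD). SDHB had 66.0 and 70.7 TPM in NOMO-1 shALKBH5 against 209 and 214 TPM in NOMO-1 shNS, and 81.8 and 57.1 TPM in MOLM-13 shALKBH5 against 160 and 158 TPM in MOLM-13 shNS. All knockdown libraries were far below the controls. SDHB fell 3.09-fold in NOMO-1 (log2 change -1.62, SE 0.17, limma adjusted p = 0.000904) and 2.29-fold in MOLM-13 (-1.20, SE 0.17, limma adjusted p = 0.00265; 0.0532 when MOLM-13 was fitted alone). The difference between the lines did not pass (NOMO-1 minus MOLM-13 -0.41, SE 0.24, limma adjusted p = 0.212), but it did with rescaled libraries (-0.91, limma adjusted p = 0.00191).

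SDHD had 123 and 129 TPM in NOMO-1 shALKBH5 against 148 and 149 TPM in NOMO-1 shNS, and 124 and 64.3 TPM in MOLM-13 shALKBH5 against 213 and 218 TPM in MOLM-13 shNS. The groups did not overlap in either line, and the MOLM-13 knockdown libraries differed widely from each other. SDHD fell in MOLM-13 (-1.26, SE 0.27, limma adjusted p = 0.013), and the call was lost without MOLM-13 shNS replicate 1 (0.0707) or replicate 3 (0.0719), or with MOLM-13 alone (0.103). In NOMO-1 its change did not pass (-0.24, SE 0.27, limma adjusted p = 0.533). SDHA had 76.5 and 83.7 TPM in NOMO-1 shALKBH5 against 84.7 and 85.6 TPM in NOMO-1 shNS, and 91.7 and 80.7 TPM in MOLM-13 shALKBH5 against 123 and 127 TPM in MOLM-13 shNS. SDHA fell in MOLM-13 (-0.53, SE 0.10, limma adjusted p = 0.00823; 0.0558 without MOLM-13 shNS replicate 1, 0.065 without replicate 3 and 0.0725 with MOLM-13 alone). SDHC passed in neither line, with changes of 0.18 in NOMO-1 and -0.22 in MOLM-13.

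Within complex II the balance of the subunit mRNAs shifted. SDHB made up 18.6% and 18.8% of the summed TPM of the 4 genes in NOMO-1 shALKBH5 against 40.2% and 40.3% in NOMO-1 shNS, and 20.2% and 20.1% in MOLM-13 shALKBH5 against 26.3% and 25.9% in MOLM-13 shNS. The ratio of SDHB to SDHA TPM was 0.863 and 0.845 in NOMO-1 shALKBH5 against 2.47 and 2.50 in NOMO-1 shNS, and 0.892 and 0.708 in MOLM-13 shALKBH5 against 1.30 and 1.25 in MOLM-13 shNS. In the controls SDHB was the most abundant SDH gene of NOMO-1, and SDHD that of MOLM-13. After knockdown the SDHB share lay between 18.6% and 20.2% in both lines.

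**Figure D3:**
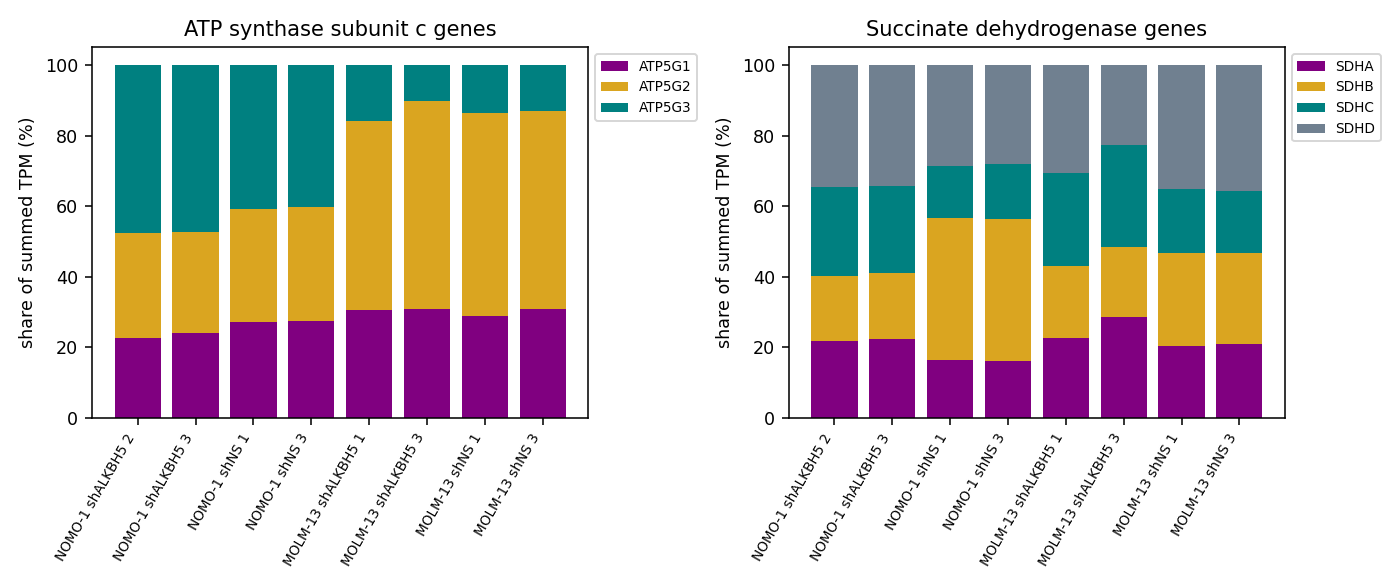
Share of each gene in the summed TPM of the ATP synthase subunit c genes (left) and of the succinate dehydrogenase genes (right), in percent, for each library. The SDHB part shrinks to 18.6% to 20.2% in shALKBH5 libraries, against 25.9% to 40.3% in shNS libraries; the ATP5G3 part separates the lines, with 40.3% to 47.6% in NOMO-1 and 10.3% to 15.9% in MOLM-13.

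Complex I has a peripheral arm, where flavin and iron-sulphur clusters carry electrons from NADH to ubiquinone, and a membrane arm that pumps protons; its nuclear-encoded core subunits all sit in the peripheral arm and the rest are accessory subunits. Of the 38 members, 3 rose and 3 fell in NOMO-1, and 8 rose and 4 fell in MOLM-13. Among the core genes NDUFS1 and NDUFV1 fell in NOMO-1, while in MOLM-13 NDUFS7, NDUFS8 and NDUFV1 rose and NDUFS1 fell. With rescaled libraries the counts for complex I turned to 3 higher and 15 lower in NOMO-1, and to 21 higher and 4 lower in MOLM-13.

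NDUFS1, the largest subunit and carrier of several iron-sulphur clusters, had 51.1 and 58.9 TPM in NOMO-1 shALKBH5 against 94.2 and 91.0 TPM in NOMO-1 shNS, and 42.7 and 32.9 TPM in MOLM-13 shALKBH5 against 82.9 and 78.4 TPM in MOLM-13 shNS. The knockdown libraries lay below the controls of the same line without overlap, as the rule for naming this gene required. On the log2 scale NDUFS1 fell in NOMO-1 by 0.74 (SE 0.14, limma adjusted p = 0.00784), and in MOLM-13 it fell by 1.09 (SE 0.14, limma adjusted p = 0.00235). The MOLM-13 call held under all alternatives, MOLM-13 alone included. In NOMO-1, NDUFS1 lost its call without shALKBH5 replicate 2 (0.0606) or shNS replicate 1 (0.057). NDUFS3, a neighbouring core subunit, passed in neither line, and the NDUFS1 to NDUFS3 ratio of TPM was 0.253 and 0.288 in NOMO-1 shALKBH5 against 0.533 and 0.502 in NOMO-1 shNS, and 0.247 and 0.171 in MOLM-13 shALKBH5 against 0.459 and 0.393 in MOLM-13 shNS.

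Other complex I genes passed in a single line. NDUFS7, the core subunit with the last iron-sulphur cluster before ubiquinone, had 75.1 and 72.7 TPM in NOMO-1 shALKBH5 against 82.8 and 81.0 TPM in NOMO-1 shNS, and 109 and 101 TPM in MOLM-13 shALKBH5 against 59.7 and 69.0 TPM in MOLM-13 shNS. It rose in MOLM-13 (0.70, SE 0.10, limma adjusted p = 0.00327; 0.056 with MOLM-13 alone). NDUFA5, an accessory subunit of the peripheral arm, had 28.9 and 29.9 TPM in NOMO-1 shALKBH5 against 25.2 and 23.3 TPM in NOMO-1 shNS, and 10.2 and 6.25 TPM in MOLM-13 shALKBH5 against 22.9 and 21.2 TPM in MOLM-13 shNS. NDUFA5 fell in MOLM-13 (-1.36, SE 0.20, limma adjusted p = 0.00331; 0.0621 with MOLM-13 alone), with no overlap in either line. NDUFA8, another accessory subunit, had 39.0 and 30.7 TPM in MOLM-13 shALKBH5 against 24.9 and 25.1 TPM in MOLM-13 shNS and passed narrowly (0.46, limma adjusted p = 0.0471), a call lost without any one library other than MOLM-13 shALKBH5 replicate 3 (0.0598 to 0.177), with no filter (0.0697), with no intensity trend (0.0512) or with MOLM-13 alone (0.151).

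NDUFC2, an accessory subunit of the membrane arm, had 26.4 and 25.4 TPM in NOMO-1 shALKBH5 against 14.3 and 11.4 TPM in NOMO-1 shNS, and 11.6 and 9.62 TPM in MOLM-13 shALKBH5 against 9.88 and 10.1 TPM in MOLM-13 shNS. It rose in NOMO-1 (0.96, SE 0.14, limma adjusted p = 0.00277), and the MOLM-13 groups overlapped. Its value is uncertain, since the table also lists the overlapping readthrough gene NDUFC2-KCTD14, which had 25.9 and 26.9 TPM in NOMO-1 shALKBH5 against 31.9 and 33.2 TPM in NOMO-1 shNS, and reads can be divided between them. NDUFV3, a small accessory subunit of the NADH-binding module, had 46.6 and 45.6 TPM in NOMO-1 shALKBH5 against 28.6 and 27.0 TPM in NOMO-1 shNS and rose there (0.71, SE 0.09, limma adjusted p = 0.00169). In MOLM-13 it had 32.9 and 30.9 TPM in shALKBH5 against 26.9 and 26.4 TPM in shNS, which did not pass (limma adjusted p = 0.0664). NDUFB9 was the most abundant complex I gene in every group, with group means between 410 and 1075 TPM, and passed in neither line.

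Complex III passes electrons from ubiquinol to cytochrome c; its electron carriers UQCRFS1, the Rieske iron-sulphur protein, and CYC1, cytochrome c1, and its core proteins UQCRC1 and UQCRC2 passed in neither line. The members that passed were the small accessory subunits UQCR11 and UQCR10, in opposite directions; with rescaled libraries 1 member rose and 5 fell in NOMO-1, and 6 rose and 1 fell in MOLM-13. UQCR11 had 28.6 and 27.5 TPM in NOMO-1 shALKBH5 against 100 and 101 TPM in NOMO-1 shNS, and 45.1 and 36.4 TPM in MOLM-13 shALKBH5 against 86.8 and 112 TPM in MOLM-13 shNS. UQCR10 had 118 and 125 TPM in NOMO-1 shALKBH5 against 81.9 and 85.5 TPM in NOMO-1 shNS, and 144 and 110 TPM in MOLM-13 shALKBH5 against 81.0 and 86.3 TPM in MOLM-13 shNS. The groups were apart in both lines for both genes, as the rule for naming them required. UQCR11 fell 3.59-fold in NOMO-1 (-1.81, SE 0.16, limma adjusted p = 0.00056) and 2.44-fold in MOLM-13 (-1.26, SE 0.16, limma adjusted p = 0.00176), and both calls held under all alternatives tried. UQCR10 rose by 0.53 in NOMO-1 (SE 0.14, limma adjusted p = 0.0226) and by 0.58 in MOLM-13 (SE 0.14, limma adjusted p = 0.0175). Its NOMO-1 call was lost without any one of the NOMO-1 libraries (0.0853 to 0.12) or of the MOLM-13 shNS libraries (0.0504 and 0.0505), and its MOLM-13 call without MOLM-13 shNS replicate 1 (0.108) or replicate 3 (0.0744), or with MOLM-13 alone (0.111). The UQCR11 to UQCR10 ratio of TPM was 0.242 and 0.22 in NOMO-1 shALKBH5 against 1.22 and 1.18 in NOMO-1 shNS, and 0.313 and 0.331 in MOLM-13 shALKBH5 against 1.07 and 1.30 in MOLM-13 shNS.

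UQCRH, the hinge subunit, was the most abundant complex III gene. UQCRH and its near-identical copy UQCRHL share reads, so the split between them is uncertain; their summed TPM was 525 and 539 in NOMO-1 shALKBH5 against 542 and 561 in NOMO-1 shNS, and 584 and 456 in MOLM-13 shALKBH5 against 613 and 623 in MOLM-13 shNS. Neither gene passed in either line.

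**Figure D4:**
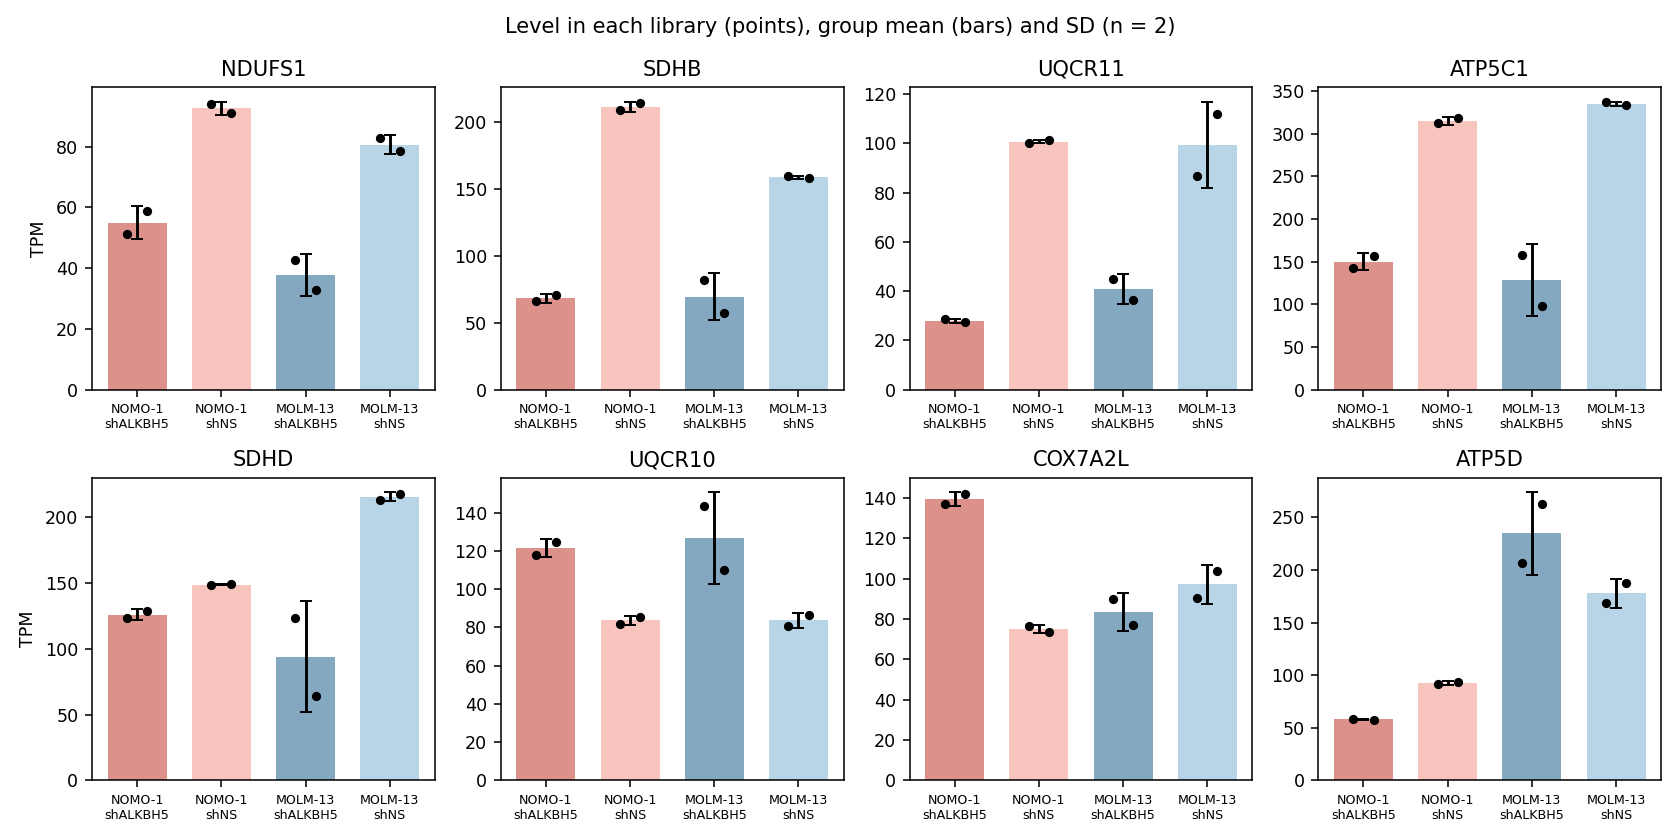
TPM in each library (points) with the group mean (bars) and SD (error bars, n = 2) for 4 members lower in both lines (NDUFS1, SDHB, UQCR11 and ATP5C1) and for SDHD, UQCR10, COX7A2L and ATP5D; every panel has its own vertical axis, each starting at 0. These 4 members lie below their controls in both lines, UQCR10 above its controls in both, and COX7A2L above and ATP5D below its controls in NOMO-1.

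Complex IV, cytochrome c oxidase, reduces oxygen at a core that is mitochondrially encoded, and the members here are its nuclear-encoded supernumerary subunits. In NOMO-1 COX7A2L rose and COX7C fell, and in MOLM-13 0 of 11 members passed with limma, 0 also at an unadjusted p under 0.05. With rescaled libraries 1 rose and 4 fell in NOMO-1, and 5 rose and 0 fell in MOLM-13. COX7A2L, which joins complex III to complex IV in supercomplexes and is no subunit of the enzyme itself, had 137 and 142 TPM in NOMO-1 shALKBH5 against 76.5 and 73.8 TPM in NOMO-1 shNS, and 90.1 and 77.0 TPM in MOLM-13 shALKBH5 against 90.3 and 104 TPM in MOLM-13 shNS. It rose in NOMO-1 (0.88, SE 0.12, limma adjusted p = 0.00196), a call that held under all alternatives. COX7C had 435 and 503 TPM in NOMO-1 shALKBH5 against 587 and 634 TPM in NOMO-1 shNS (-0.38, SE 0.12, limma adjusted p = 0.0423), and its call was lost without any one of the NOMO-1 libraries (0.0601 to 0.212) or of the MOLM-13 shNS libraries (0.0822 and 0.0824), with no filter (0.0651), with no intensity trend (0.0521) and with the replicate block in MOLM-13 (0.0523). COX7B, the most abundant complex IV gene in NOMO-1, and COX6A1, COX6B1, COX7A2 and COX8A, the widely expressed isoforms of their subunits, passed in neither line. Their counterparts COX6A2 and COX7B2 were listed at 0 in every library, and COX6B2 and COX7A1 stayed at or under 1.06 TPM.

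Complex V, the ATP synthase, turns proton flow through a ring of c subunits into rotation of a central stalk inside the catalytic head. Of its 17 tested members 1 rose and 5 fell in NOMO-1, and 1 rose and 2 fell in MOLM-13; with rescaled libraries 1 rose and 10 fell in NOMO-1, and 7 rose and 1 fell in MOLM-13. The 1 that rose in NOMO-1 was ATP5SL (0.53, SE 0.15, limma adjusted p = 0.0267), which is not a subunit of the enzyme. ATP5C1, the gamma subunit of the rotating central stalk, had 143 and 157 TPM in NOMO-1 shALKBH5 against 312 and 319 TPM in NOMO-1 shNS, and 158 and 98.6 TPM in MOLM-13 shALKBH5 against 337 and 333 TPM in MOLM-13 shNS. Every knockdown library lay far below the controls of its line. ATP5C1 fell 2.10-fold in NOMO-1 (-1.07, SE 0.21, limma adjusted p = 0.00806; 0.0594 without NOMO-1 shALKBH5 replicate 2 and 0.0531 without NOMO-1 shNS replicate 3) and 2.61-fold in MOLM-13 (-1.42, SE 0.21, limma adjusted p = 0.00333; 0.0582 with MOLM-13 alone). ATP5A1 and ATP5B encode the alpha and beta subunits of the head; ATP5B passed in neither line, and the ATP5C1 to ATP5A1 ratio of TPM was 0.265 and 0.259 in NOMO-1 shALKBH5 against 0.558 and 0.543 in NOMO-1 shNS, and 0.263 and 0.173 in MOLM-13 shALKBH5 against 0.462 and 0.454 in MOLM-13 shNS. ATP5A1 passed in MOLM-13 (-0.32, SE 0.09, limma adjusted p = 0.0349) but not with rescaled libraries (-0.03, limma adjusted p = 0.876), without either MOLM-13 shNS library (0.157 and 0.16), without either NOMO-1 shNS library (0.081 and 0.0811), with no filter (0.0512) or with MOLM-13 alone (0.126).

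The other central stalk genes are ATP5D (delta) and ATP5E (epsilon). ATP5D had 58.5 and 57.7 TPM in NOMO-1 shALKBH5 against 91.5 and 93.9 TPM in NOMO-1 shNS, and 207 and 263 TPM in MOLM-13 shALKBH5 against 168 and 187 TPM in MOLM-13 shNS. It fell in NOMO-1 (-0.67, SE 0.13, limma adjusted p = 0.00827; 0.0507 to 0.0595 without any one of the NOMO-1 libraries), while its change in MOLM-13 did not pass (0.39, SE 0.13, limma adjusted p = 0.0537). ATP5E had 348 and 394 TPM in NOMO-1 shALKBH5 against 411 and 424 TPM in NOMO-1 shNS, and 657 and 639 TPM in MOLM-13 shALKBH5 against 468 and 448 TPM in MOLM-13 shNS. It rose in MOLM-13 (0.50, SE 0.09, limma adjusted p = 0.00788; 0.0528 without MOLM-13 shNS replicate 1, 0.0672 without replicate 3 and 0.0651 with MOLM-13 alone). The 4 genes of the peripheral stalk passed in neither line. In MOLM-13 their median log2 change was nonetheless -0.51, and 3 of the 4 had an unadjusted limma p under 0.05. There 3 of the 4 were also lower without overlap, as were 46.2% of all genes tested. In NOMO-1 their median was -0.17.

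The c ring is encoded by a set of 3 genes whose mature proteins are the same. ATP5G1 had 116 and 125 TPM in NOMO-1 shALKBH5 against 159 and 163 TPM in NOMO-1 shNS (-0.42, SE 0.10, limma adjusted p = 0.016), and ATP5G2 had 152 and 149 TPM against 187 and 193 TPM in the same groups (-0.33, SE 0.09, limma adjusted p = 0.0289). Both fell while ATP5G3 had 243 and 246 TPM in NOMO-1 shALKBH5 against 239 and 241 TPM in NOMO-1 shNS and did not pass. The ATP5G1 call was lost without NOMO-1 shALKBH5 replicate 2 (0.0995), shNS replicate 1 (0.0831) or shNS replicate 3 (0.104), and the ATP5G2 call without any one of the NOMO-1 libraries (0.109 to 0.162) or of the MOLM-13 shNS libraries (0.0702 and 0.0704). ATP5G3 thereby made up 47.6% and 47.3% of subunit c TPM in NOMO-1 shALKBH5 against 41.0% and 40.3% in NOMO-1 shNS. In MOLM-13 its part was 15.9% and 10.3% in shALKBH5 against 13.5% and 13.0% in shNS, which overlapped, and none of the 3 genes passed.

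The effect of knockdown was then compared between the lines by a test of the difference itself, NOMO-1 minus MOLM-13. Of the members, 5 were higher and 9 lower by this test, or 17.5%, against 34.6% of all genes tested (29.7% higher and 4.9% lower). With rescaled libraries 3 were higher and 41 lower, a larger share than the 35.7% of all genes that passed there. Unlike after rescaling, the members' share was under that of all genes in TPM as deposited, where 5 were higher and 9 lower. The number fell to 2 without MOLM-13 shNS replicate 1, to 3 without NOMO-1 shNS replicate 3, to 4 without the other shNS library of either line, and to 5 and 6 without NOMO-1 shALKBH5 replicate 2 and replicate 3; it was 50 and 43 without MOLM-13 shALKBH5 replicate 1 and replicate 3. The members with the smallest p were COX7A2L (1.10, SE 0.17, limma adjusted p = 0.00642), NDUFS7 (-0.85, SE 0.15, limma adjusted p = 0.0092; 0.0518 without NOMO-1 shNS replicate 1), NDUFA5 (1.62, SE 0.28, limma adjusted p = 0.00958; 0.0504 without MOLM-13 shNS replicate 1), ATP5D (-1.06, SE 0.19, limma adjusted p = 0.00972; 0.0507 without NOMO-1 shNS replicate 3 and 0.0533 without MOLM-13 shNS replicate 1) and ATP5E (-0.67, SE 0.13, limma adjusted p = 0.0134; lost without any one shNS library, 0.0608 to 0.07). NDUFS1, SDHB, UQCR11 and ATP5C1 did not pass this test; their differences ran from -0.55 for UQCR11 to 0.35 for ATP5C1, with limma adjusted p from 0.0989 to 0.39. With rescaled libraries UQCR11 passed it (-1.04, limma adjusted p = 0.00686), as SDHB did.

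Before knockdown the lines differed in the make-up of the chain. Between the controls, NOMO-1 shNS minus MOLM-13 shNS, 20 members were higher and 17 lower, or 46.2%. Of all genes tested, 59.8% passed (40.6% higher and 19.2% lower). With rescaled libraries 14 members were higher and 41 lower, or 68.8%, against 65.9% of all genes tested. The number was 19 or 20 without any one of the shNS libraries and 57 without either MOLM-13 shALKBH5 library. These controls are the same libraries that served the knockdown comparisons. By complex the higher and lower counts were 13 and 3 for complex I, 0 and 2 for complex II, 1 and 3 for complex III, 4 and 3 for complex IV and 2 and 6 for complex V. With rescaled libraries the counts were 9 and 11 for complex I, 0 and 3 for complex II, 1 and 7 for complex III, 2 and 6 for complex IV and 2 and 14 for complex V.

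The widest gap was at COX8C, an isoform of a complex IV subunit that is known mainly from testis. COX8C had 34.5 and 35.8 TPM in NOMO-1 shALKBH5 and 22.9 and 24.1 TPM in NOMO-1 shNS, while MOLM-13 libraries had 0.18 and 0.54 TPM in shALKBH5, and 0.37 TPM and a listed 0 in shNS. The control difference was 4.39 (SE 0.19, limma adjusted p = 8.05e-06). COX8C made up 11.4% and 10.98% of the TPM of COX8A and COX8C in NOMO-1 shALKBH5 against 6.30% and 6.93% in NOMO-1 shNS; its change with knockdown in NOMO-1 did not pass (0.56, SE 0.19, limma adjusted p = 0.0575), and COX8C lies on chromosome 14 from 93347191 to 93348356 (GRCh38, plus strand). ATP5G3 came next (1.56, SE 0.18, limma adjusted p = 0.000469), with 239 and 241 TPM in NOMO-1 shNS against 79.8 and 81.7 TPM in MOLM-13 shNS. ATP5G2 lay on the other side, with 187 and 193 TPM in NOMO-1 shNS against 342 and 353 TPM in MOLM-13 shNS (-0.87, SE 0.09, limma adjusted p = 0.000341). The lines thus held similar summed subunit c TPM, 584 and 597 in NOMO-1 shNS against 592 and 628 in MOLM-13 shNS. The same genes contributed to it in different proportions.

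Other members higher in NOMO-1 controls were NDUFA8 (1.15), NDUFA4L2 (1.13) and NDUFB9 (1.08), and members lower there were NDUFA10 (-1.09), COX7A2 (-0.98), ATP5D (-0.93) and UQCRB (-0.91), all on the log2 scale and with limma adjusted p from 0.00012 to 0.0026. NDUFA4L2, a relative of NDUFA4 known to rise in hypoxia, was low in both lines, at 4.00 and 5.96 TPM in NOMO-1 shNS against 1.85 and 1.55 TPM in MOLM-13 shNS. UQCRB shares reads with the pseudogene UQCRBP1, which had 38.0 and 27.7 TPM in NOMO-1 shNS against 110 and 121 TPM in MOLM-13 shNS, so its value is uncertain.

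Of the 80 members, 51 passed in neither line. Their log2 changes ran from -0.44 for ATP5H to 0.56 for COX8C in NOMO-1 and from -0.65 for NDUFB6 to 0.47 for NDUFA2 in MOLM-13; 50 of them in NOMO-1 and 46 in MOLM-13 lay within 0.5 of 0. NDUFA1 was the other member to rise in both lines beside UQCR10, as 6.33% of all genes tested did, and NDUFV1 the one member that fell in NOMO-1 and rose in MOLM-13; 4.13% of all genes tested passed in opposite directions. These were named after their values were seen. NDUFA1, a membrane arm subunit encoded on the X chromosome, had 503 and 517 TPM in NOMO-1 shALKBH5 against 363 and 390 TPM in NOMO-1 shNS, and 316 and 284 TPM in MOLM-13 shALKBH5 against 235 and 232 TPM in MOLM-13 shNS. NDUFV1, the subunit that binds NADH, had 113 and 133 TPM in NOMO-1 shALKBH5 against 162 and 158 TPM in NOMO-1 shNS, and 184 and 168 TPM in MOLM-13 shALKBH5 against 129 and 144 TPM in MOLM-13 shNS.

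Genes that work with the chain were counted by the same test. Beside them, 28.6% of all genes tested were higher and 15.0% lower in NOMO-1, and 10.6% and 31.2% in MOLM-13. With rescaled libraries 49.7% of all genes passed in NOMO-1 and 50.5% in MOLM-13. Of 19 complex I assembly factors, 2 rose and 3 fell in NOMO-1, and 1 rose and 6 fell in MOLM-13; NDUFAF4 fell in both lines (-0.86 and -1.32) and NDUFAF3 rose in both (0.38 and 0.77). The other that rose in NOMO-1 was ATP5SL, which is also counted above under complex V. Of 4 complex II assembly factors, 2 rose and 0 fell in NOMO-1, which were SDHAF1 (0.75) and SDHAF2 (0.82), and 1 rose and 0 fell in MOLM-13, which was SDHAF1 (0.54). SDHAF1 inserts the iron-sulphur clusters of SDHB and SDHAF2 the flavin of SDHA. Of 6 complex III assembly factors, 2 rose and 3 fell in NOMO-1, with BCS1L, which installs the Rieske protein, at -0.96, and 0 rose and 2 fell in MOLM-13. Of 26 complex IV assembly factors, 4 rose and 5 fell in NOMO-1, and 2 rose and 11 fell in MOLM-13; SURF1 rose in both lines (1.29 and 0.60), and SCO2, a copper chaperone, rose in MOLM-13 (2.75). Of 3 complex V assembly factors, 1 rose and 1 fell in NOMO-1, and 0 rose and 1 fell in MOLM-13. With rescaled libraries the complex IV factors turned to 4 higher and 8 lower in NOMO-1 and to 7 higher and 5 lower in MOLM-13, and the complex I factors to 1 and 5 in NOMO-1 and to 4 and 4 in MOLM-13. The complex II factors then had 2 higher and 1 lower in NOMO-1 and 2 higher and 0 lower in MOLM-13, and the complex III factors 1 higher and 2 lower in MOLM-13.

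Of 18 genes of the TCA cycle and of pyruvate dehydrogenase, without the SDH genes, 2 rose and 6 fell in NOMO-1, and 1 rose and 9 fell in MOLM-13; with rescaled libraries the counts were 1 and 9, and 4 and 9. SUCLG2, a subunit of succinyl-CoA ligase, which makes the succinate that complex II uses, fell by 2.87 in NOMO-1 and by 3.41 in MOLM-13 on the log2 scale (limma adjusted p = 0.000334 and 0.000184). PDHB of pyruvate dehydrogenase fell in both lines (-1.13 and -1.31), and IDH2 fell in MOLM-13 (-2.04). Of 77 mitochondrial ribosomal protein genes, 8 rose and 18 fell in NOMO-1, and 3 rose and 25 fell in MOLM-13. These are 33.8% and 36.4%, under the 43.6% and 41.8% of all genes tested. With rescaled libraries 7 rose and 39 fell in NOMO-1, and 18 rose and 20 fell in MOLM-13, or 59.7% and 49.4%. Of 14 regulators of mitochondrial biogenesis, 2 rose and 6 fell in NOMO-1, and 1 rose and 7 fell in MOLM-13; NRF1 fell in both lines (-0.82 and -0.73), TFB1M fell in both (-0.82 and -0.92), GABPA fell in MOLM-13 (-1.46), and PPARGC1A, the coactivator PGC-1alpha, rose in NOMO-1 (1.37). With rescaled libraries the regulators had 2 higher and 9 lower in NOMO-1 and 4 higher and 7 lower in MOLM-13. Of 24 mitochondrial import genes, 4 rose and 5 fell in NOMO-1, and 2 rose and 10 fell in MOLM-13, TIMM21 being lower in both (-1.45 and -0.90); with rescaled libraries 2 rose and 12 fell in NOMO-1, and 8 rose and 9 fell in MOLM-13. The subunits that the rule for names leaves out gave 0 higher and 1 lower of 6 in NOMO-1, and 2 and 2 in MOLM-13; NDUFAB1, the mitochondrial acyl carrier protein in complex I, fell in both lines (-0.60 and -0.64), and COX4I1 of complex IV rose in MOLM-13 (0.37).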

How the data were processed

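The authors deposited 1 table of TPM for 8 libraries. The tools named are STAR and RSEM, with GRCh38 as the build, per the submitters' processing notes, with versions and annotation not given in the sources used here. Since TPM is a share, abundant transcripts of a library lower all its other values, and an exact 0 can be a failed estimate. Groups follow the sample labels, and the columns of the table marked E were read as shALKBH5 from line, number and elimination.

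Genes reaching 1 TPM in 2 or more libraries (14302) were tested with limma 3.58.1 in R 4.3.3 on log2(TPM + 1), so fold changes of low genes are understated. The fit had 4 group means over all 8 libraries (4 residual and 2.29 prior degrees of freedom), empirical Bayes moderation (intensity trend), two-sided p-values adjusted by Benjamini-Hochberg over all genes, and a threshold of 0.05. All groups share a gene's spread, which was widest in MOLM-13 shALKBH5. The fit was tested on simulated data.

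The members and lists were chosen with earlier results of these data known. Genes named are, per complex and knockdown, the 3 with the smallest p that passed without overlap and with a group mean of at least 5 TPM, the SDH genes, paralogue sets, the most abundant member, the 5 with the smallest p for the line difference, and, in each direction, the 5 with the largest folds between controls. Of other lists, up to 3 that passed per line are named. Some genes this rule names are not reported here. Alternatives were another pseudocount, other filters, median-of-ratios scaling, no trend, a replicate block, each library left out, each line alone and, added after seeing the data, members limited to subunits. Promoter sequences are from RefSeq (GRCh38.p14).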

Additional observations from a re-analysis of the deposited data

Results flagged for a closer look

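The knockdown effect differed between the lines, NOMO-1 minus MOLM-13 and with limma adjusted p under 0.05, for 7 members that are also named in the report. On the log2 scale the difference was 1.62 for NDUFA5, 0.89 for NDUFC2, -0.85 for NDUFS7, 0.46 for NDUFV3, 1.10 for COX7A2L, -1.06 for ATP5D and -0.67 for ATP5E. NDUFC2 (0.107) and NDUFV3 (0.838) did not pass with rescaled libraries, and neither passed without NOMO-1 shALKBH5 replicate 2 or replicate 3, NOMO-1 shNS replicate 3, or MOLM-13 shNS replicate 1 or replicate 3 (0.0697 to 0.143). NDUFV3 was also lost without NOMO-1 shNS replicate 1 (0.103). COX7A2L passed in all 14 alternatives.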

How the results depend on the processing

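With median-of-ratios scaling the number of members called was 42 in NOMO-1, 48 in MOLM-13 and 44 for the difference of the effects, against 17, 20 and 14; medians for complexes I to V moved to -0.16, -0.38, -0.25, -0.18 and -0.39 in NOMO-1, and to 0.32, -0.58, 0.27, 0.33 and 0.20 in MOLM-13. The difference for NDUFV3 turned to -0.0443 there. Fitted alone, NOMO-1 gave 42 calls and MOLM-13 3. Leaving out 1 library at a time gave 5 to 44 calls in NOMO-1, 7 to 55 in MOLM-13, 2 to 50 for the difference and 19 to 57 between controls. The medians then ran from 0.0008 to 0.0706 for complex I, -0.21 to -0.11 for complex II, -0.0646 to -0.0254 for complex III, -0.0231 to 0.0609 for complex IV and -0.26 to -0.0853 for complex V in NOMO-1, and from -0.0294 to 0.19, -1.04 to -0.62, -0.16 to 0.11, -0.16 to 0.20 and -0.21 to -0.0388 in MOLM-13. With subunits only, the NOMO-1 medians were -0.0155 for complex IV and -0.28 for complex V. As a mean of members on the log2 scale in place of a share of TPM, the NOMO-1 log2 changes were 0.0926 for complex I, -0.40 for complex II, -0.0701 for complex III and 0.11 for complex IV, and 0.0197 for complex III in MOLM-13. The cause of these changes was not tested. The pseudocount, both filters and the trend kept all 4 counts within 1.5 times and the medians within the spread. NOMO-1 groups share only replicate number 3. In MOLM-13 the same-numbered libraries hardly deviated together (correlation 0.0606 over 14302 genes, 2 pairs). With so few libraries this cannot show whether they were handled as pairs, which the labels do not tell. With the replicate block 18, 24, 16 and 40 members passed in NOMO-1, in MOLM-13, for the difference and between controls. With 2 libraries a group and no known depth, small changes could not be resolved.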
